A study of Homo sapiens with 10 samples.

Results

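The 10 ligand genes AREG, EREG, HBEGF, TGFA, NRG1, BTC, PDGFA, PDGFB, PDGFC and PDGFD were taken by gene symbol from a table of 34567 genes, and their mRNA was followed in 2 human glioma cell lines in which the level of MEOX2 had been changed. MEOX2 is a homeodomain transcription factor of the mesenchyme. SNB19 cells received either a scramble siRNA (NC, 3 libraries) or an siRNA against MEOX2 (siMEOX2, 3 libraries). U87 cells carried either an empty lentiviral vector (EV, 2 libraries) or the same kind of vector with MEOX2 (OE, 2 libraries), and were kept as puromycin-selected stable lines. All cells grew in serum-containing medium, so that growth factors from serum were present in every group. Each perturbation was made in 1 line, in opposite directions, and the labels do not say whether the libraries of a group came from separate cultures, so that the p-values may measure technical spread alone.

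Both families signal through receptor tyrosine kinases that are frequently altered in glioma. Ligands of the EGF family are made as membrane-anchored precursors and released by metalloproteases. AREG, EREG, HBEGF, TGFA and BTC bind EGFR (HBEGF, EREG and BTC also bind ERBB4), whereas NRG1 binds ERBB3 and ERBB4, and ERBB2 serves as the partner receptor without a ligand of its own. The PDGF chains form disulfide-linked dimers. PDGFA and PDGFB are cut inside the cell by furin-like proteases, whereas PDGFC and PDGFD are secreted as latent forms and opened outside the cell, PDGFC by tissue plasminogen activator and PDGFD by urokinase. PDGFA and PDGFC act mainly on PDGFRA, PDGFD on PDGFRB, and PDGFB on both.

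EREG and AREG lie next to each other on chromosome 4 and were read very differently, so the sequence before each start is shown. The RefSeq promoter windows on GRCh38.p14 covered 7 of the 10 ligands, and 240 bases of the 300-base windows are given, all upstream of the start on the plus strand. Capitals mark TATAAA in both genes (the TATA box sequence, looked for after the sequences had been read) and TGACGTCA in AREG (the cyclic AMP response element).
EREG, chr4:74364895-74365134: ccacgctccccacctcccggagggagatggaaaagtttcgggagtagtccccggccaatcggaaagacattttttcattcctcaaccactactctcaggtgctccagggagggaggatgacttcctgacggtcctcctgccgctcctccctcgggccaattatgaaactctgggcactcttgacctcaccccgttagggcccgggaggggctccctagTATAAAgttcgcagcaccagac
AREG, chr4:74444886-74445125: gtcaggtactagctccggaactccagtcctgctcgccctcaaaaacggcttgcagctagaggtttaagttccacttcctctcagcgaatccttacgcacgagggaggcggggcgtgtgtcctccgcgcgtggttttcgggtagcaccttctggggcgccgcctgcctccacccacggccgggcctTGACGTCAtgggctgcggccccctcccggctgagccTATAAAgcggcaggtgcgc
The first base of TATAAA was 32 bases before the start of EREG and 29 bases before that of AREG, and TGACGTCA began 65 bases before the start of AREG. Searched on both strands, TATAAA or its complement was in 11.5% of all 35116 promoter windows and TGACGTCA in 1.85%. TAATTA, the core bound by many homeodomain proteins, was in 0 of the 11 ligand windows and in 4.84% of all windows. TGANTCA, the AP-1 sequence, was also in 0 of the 11 ligand windows and in 7.71% of all. A match, or none, in these letters says nothing of which factor was bound.

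The libraries held 12533775 to 16560324 gene counts, and levels are given as CPM (counts of a gene scaled to a common depth), on library sizes scaled by the trimmed mean of M-values (TMM). MEOX2 itself stood at 249, 224 and 275 counts in the NC libraries and at 54, 40 and 49 in the siMEOX2 libraries, a log2 fold change of -2.42 (SE 0.14, edgeR adjusted p = 9.1e-05). It had 0 reads in both EV libraries and 4999 and 5308 in the OE libraries, at least 3250-fold higher over a floor of 3 counts in the EV group. The groups follow the sample titles, and MEOX2 went with them. The treatment labels of EV library 2 and of OE libraries 1 and 2 instead name MEOX3, MEOX4 and MEOX5, and both OE titles carry the same tag, so that the labels of these libraries conflict among themselves. The first EV library stood apart. Its log2 CPM correlated with the second EV library at r = 0.944, against 0.989 to 0.992 for the other replicate pairs, its TMM factor was 0.695 against 0.95 to 1.134, and ribosomal protein genes took 12.98% of its counts against 4.04 to 6.68%. Relative to the second EV library, it was higher by a median log2 ratio of 0.59 for the 4328 shortest genes tested and lower (-0.59) for the 4328 longest. Of the markers for glioma cells, VIM and CD44 were high in both lines. GFAP was at a mean of 1.37 to 4.18 CPM over the groups, and S100B was at 0 reads in U87. SOX2 was at a mean of 31.45 CPM in SNB19 NC and 0.0374 CPM in U87 EV. In the same 2 groups NES was at 51.5 and 19.5 CPM, CHI3L1 at 451 and 203 CPM and OLIG2 at 3.671 and 6.345 CPM. In bulk RNA, fewer cells of a type and less RNA per cell cannot be told apart.

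**Figure D1:**
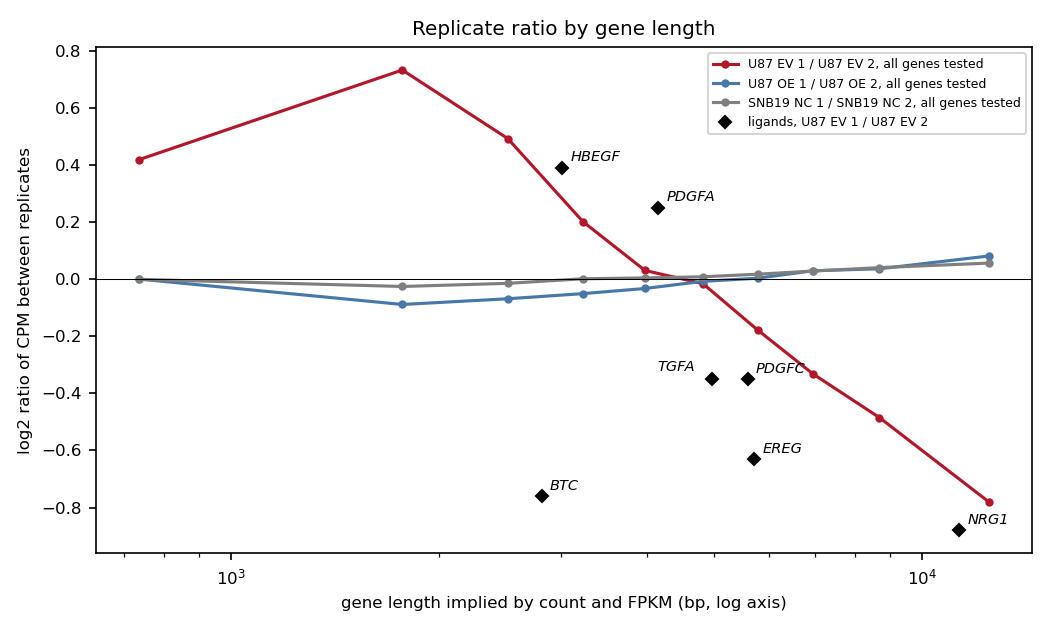
Log2 ratio of CPM between 2 replicate libraries (y axis) against the gene length in bases implied by the deposited counts and FPKM (x axis, log scale). Lines join the medians of 10 classes of length among the genes tested for 3 replicate pairs, and black diamonds are the 7 ligands with reads in U87 EV. The EV pair falls from above 0 for short genes to below 0 for long genes, and NRG1, the longest ligand gene model, sits at -0.88.

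The ligand repertoire differed between the lines. Levels between genes were compared as FPKM, the deposited unit per length and depth. In SNB19 NC cells HBEGF, heparin-binding EGF-like growth factor, was the most abundant ligand at 18.7 ± 1.17 FPKM (SD, n = 3). PDGFC at 12.5 ± 0.533 and PDGFB at 8.64 ± 0.352 FPKM followed, and the ranges of these 3 did not overlap. PDGFA at 3.28 ± 0.151 and TGFA at 3.06 ± 0.287 FPKM could not be ordered beyond their spread. NRG1 stood at 1.99 ± 0.0564 FPKM. PDGFD and BTC overlapped at means of 0.902 and 0.9 FPKM, and EREG (0.0146 FPKM) overlapped AREG, which had no read.

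In U87 EV cells, EREG, the low-affinity EGFR and ERBB4 ligand epiregulin, headed the list at 63.5 ± 32.2 FPKM (SD, n = 2), above HBEGF at 17.3 ± 0.508 FPKM. PDGFC (12.1 ± 4.67 FPKM), NRG1 (8.5 ± 5.21) and PDGFA (5.44 ± 0.546) overlapped as neighbours in the order. TGFA was at 2.92 ± 1.13 and BTC at 1.33 ± 0.762 FPKM. AREG, PDGFB and PDGFD had no read in either EV library, and 3 counts over the group would correspond to 0.122 CPM. These limits, and the counting intervals given later, cover counting error only.

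EREG therefore made up 62.3 to 70.9% of the summed FPKM of the 6 EGF family ligands in the EV libraries and 84.3 to 84.9% in the OE libraries, while it did not exceed 0.784% in any SNB19 library. HBEGF held 75.1 to 77% of this sum in NC and 63.7 to 65.5% in siMEOX2 cells. The summed FPKM of the 6 ligands was 23.5 to 26 in NC, 22.2 to 23 in siMEOX2, 65.4 to 122 in EV and 367 to 402 in OE libraries. EGF, EPGN, NRG2, NRG3 and NRG4 are outside the sum, so these are not shares of the whole EGF family. In NC, NRG2 was at a mean of 4.48 FPKM and EGF at 1.71 FPKM, against 3.06 FPKM for TGFA. For the PDGF chains, PDGFC held the largest share in every library, from 48.4 to 50.6% in NC to 80.1 to 81.6% in OE cells. PDGFB held 33.5 to 35.2% in NC and 23.7 to 25.2% in siMEOX2 cells.

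**Figure D2:**
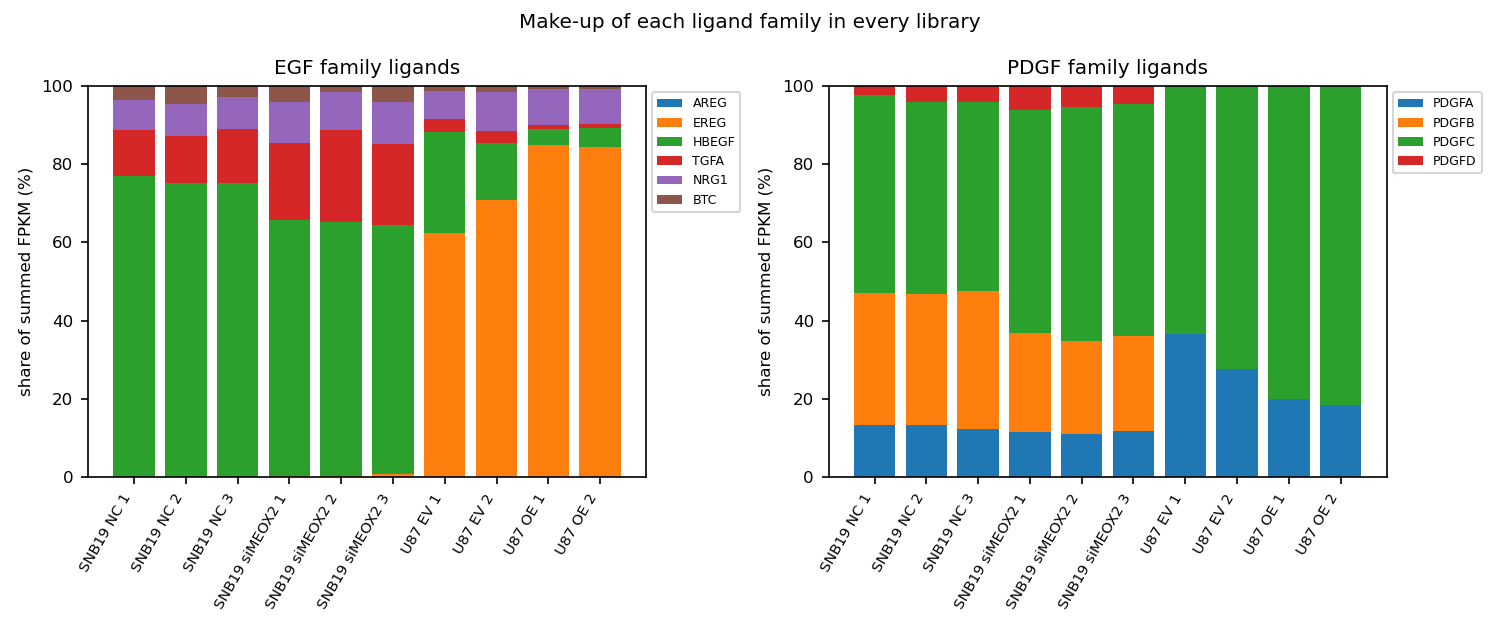
Share of each ligand in the summed FPKM of its family members among the 10 ligands (y axis, percent) in each of the 10 libraries (x axis). The EGF family is on the left, without EGF, EPGN and NRG2 to NRG4, and the PDGF family is on the right. HBEGF fills most of the EGF family bars in SNB19 and EREG most of those in U87, and PDGFB and PDGFD are seen in SNB19 alone.

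Compared with control SNB19, control U87 cells held more EREG, NRG1 and PDGFA mRNA and no detected PDGFB or PDGFD. In this comparison 5 of the 9 ligands that passed the filter on low counts were past an adjusted p of 0.05 (edgeR quasi-likelihood test), 3 higher and 2 lower in U87, where 56.9% of all 17312 genes tested were, 28.8% higher and 28.1% lower. EREG passed the filter only through U87, and PDGFB and PDGFD only through SNB19, so these 3 had to differ and are given as values with no test. Of the other 6 ligands 2 were called, NRG1 and PDGFA, and the groups did not overlap for 4 of the 6, against 66% of all genes. AREG, with 3 reads in all, did not pass. The lines also differ in the delivery of the control (siRNA against lentivirus), and line and delivery cannot be told apart.

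EREG had 2, 0 and 2 reads in the NC libraries and 3764 and 6931 in the EV libraries. After scaling by library size, the ratio of the summed counts (10695 against 4) was 5240, with a 95% counting interval of 2050 to 19200. No SNB19 library came near the U87 level. NRG1, which also binds ERBB3, was at 21.8, 20.7 and 21.7 CPM in NC and at 78.5 and 145 CPM in EV (log2 fold change 2.39, SE 0.22, edgeR adjusted p = 1.99e-05). PDGFA was at 13.6, 13 and 12.2 CPM in NC and at 30.2 and 25.4 CPM in EV (log2 fold change 1.10, SE 0.15, edgeR adjusted p = 0.000232). For both genes every EV library lay above every NC library.

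PDGFB had 544, 426 and 522 reads in NC and 0 in both EV libraries, at least 254-fold lower in U87. PDGFD had 44, 60 and 70 reads in NC and 0 in EV, at least 29.6-fold lower. Both genes were seen in all 3 NC libraries and in neither EV library. HBEGF (log2 fold change 0.27, 95% CI -0.05 to 0.6), TGFA (0.26, -0.1 to 0.62), BTC (0.87, -0.09 to 1.82) and PDGFC (0.28, -0.02 to 0.58) were not called. Without the first EV library, which leaves 1 EV library assumed to vary like the other groups, TGFA (log2 fold change 0.43), BTC (1.21) and PDGFC (0.45) were also called, at edgeR adjusted p = 0.0117, 0.0028 and 6.89e-05, and without the second EV library HBEGF was (0.48, edgeR adjusted p = 8.31e-05).

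**Figure D3:**
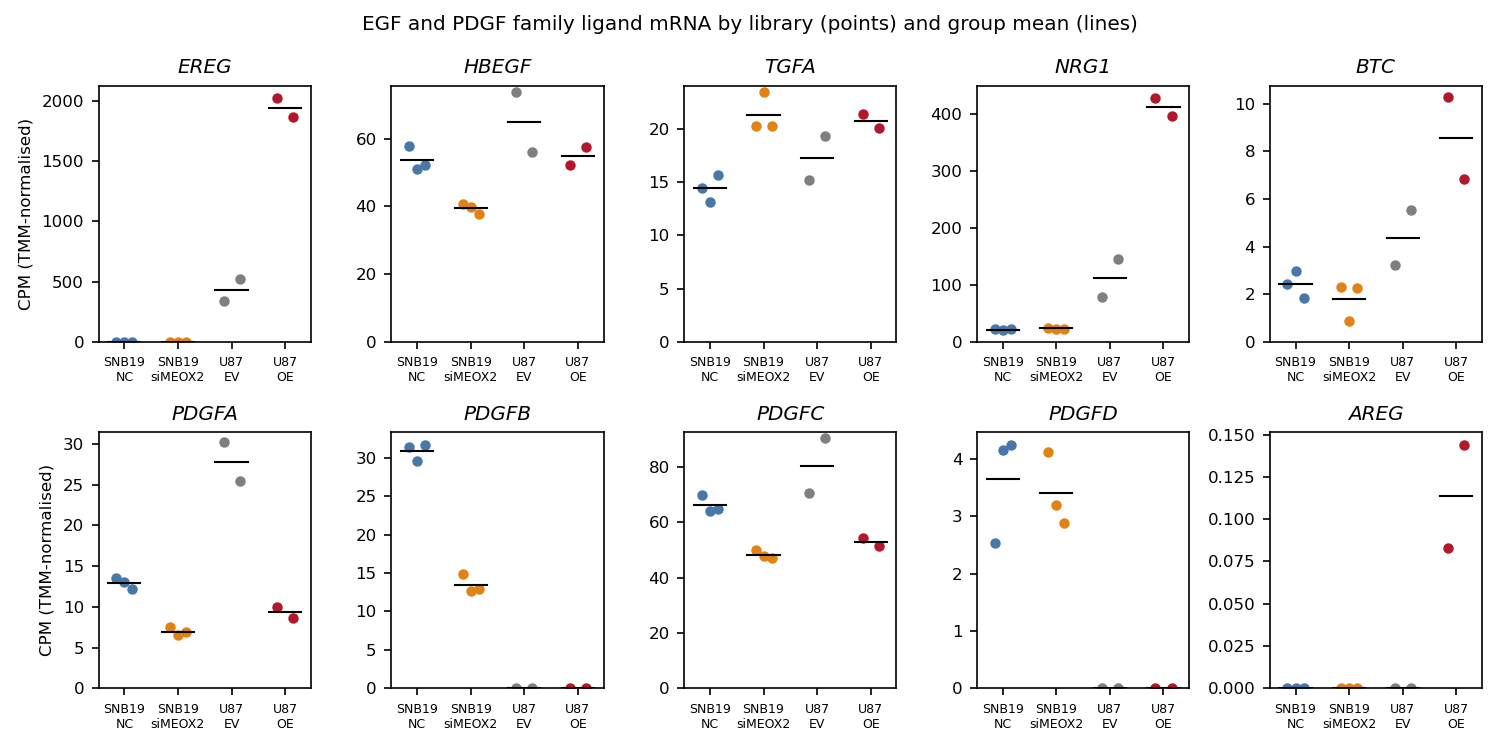
CPM of each ligand (y axis, linear, its own scale in each panel) in the 10 libraries, by group on the x axis. Points are libraries and lines are group means. EREG and NRG1 are highest in U87 OE, PDGFA is highest in U87 EV, and PDGFB and PDGFD have points at 0 in all 4 U87 libraries.

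Silencing of MEOX2 in SNB19 was followed by lower PDGFB, PDGFA, PDGFC and HBEGF mRNA and higher TGFA mRNA. That is 5 of the 9 ligands tested (4 lower and 1 higher), where 15.7% of all genes were called in this comparison, 8.75% lower and 6.99% higher. The median log2 fold change was -0.40 over the 9 ligands and 0 over all genes. The CPM of the 2 groups did not overlap for 7 of the 9 ligands, which was so for 57% of all genes.

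PDGFB had the largest fall among the ligands. It was at 31.4, 29.5 and 31.7 CPM in NC and at 14.8, 12.7 and 13 CPM in siMEOX2 libraries, a 2.29-fold lower level (log2 fold change -1.19, SE 0.14, edgeR adjusted p = 0.00212). PDGFA was at 13.6, 13 and 12.2 CPM against 7.48, 6.54 and 6.89 CPM, 1.85-fold lower (log2 fold change -0.89, SE 0.14, edgeR adjusted p = 0.00347). For both PDGF chains each knockdown library lay below each control library, and both calls were kept in all 10 fits that left out 1 library.

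PDGFC fell 1.37-fold, from 70, 64.2 and 64.9 CPM to 49.9, 47.9 and 47.1 CPM (log2 fold change -0.46, SE 0.12, edgeR adjusted p = 0.0311). HBEGF fell 1.36-fold, from 57.8, 50.9 and 52.3 CPM to 40.6, 39.9 and 37.7 CPM (log2 fold change -0.45, SE 0.13, edgeR adjusted p = 0.0465). TGFA rose 1.48-fold, from 14.5, 13.1 and 15.7 CPM to 20.2, 23.5 and 20.2 CPM (log2 fold change 0.57, SE 0.14, edgeR adjusted p = 0.0276). The groups did not overlap for any of these 3 ligands. Their calls were lost in each fit without 1 SNB19 library or 1 OE library, at edgeR adjusted p between 0.0598 and 0.125 for PDGFC, 0.0742 and 0.173 for HBEGF, and 0.0507 and 0.119 for TGFA, and were kept without either EV library. A fit of SNB19 alone leaves the U87 libraries out of the estimate of spread. The SE was then 0.06 for PDGFC, 0.07 for HBEGF and 0.1 for TGFA, with edgeR adjusted p = 4.4e-06, 1.92e-05 and 6.2e-05.

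EREG counts were 2, 0 and 2 in NC and 4, 6 and 14 in siMEOX2 libraries. The groups did not overlap, and the ratio of the sums, 24 against 4 reads, was 5.85 after scaling by library size, with a 95% counting interval of 2.01 to 23.2. The log2 fold change was 2.44 (SE 0.76), and it was not called (edgeR adjusted p = 0.0585), although it was in the fits without the first EV library (edgeR adjusted p = 0.00212) and without the second (0.00221). In the fits without 1 SNB19 library the edgeR adjusted p was 0.0502 to 0.191, and without siMEOX2 library 3 the log2 fold change was 1.76. Even so, the siMEOX2 libraries did not exceed 0.878 CPM, far under the 335 to 518 CPM of U87 EV. NRG1 (log2 fold change 0.14, 95% CI -0.31 to 0.58), BTC (-0.40, -1.31 to 0.5) and PDGFD (-0.10, -0.77 to 0.58) were not called. AREG had no read in the 6 SNB19 libraries, which allows up to 0.0622 CPM in NC and 0.0607 CPM in siMEOX2.

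Both the endothelial and the glioma markers, each summed, were lower in siMEOX2 libraries, as PDGFB was. The endothelial markers PECAM1, VWF and CDH5 summed to 37.7 to 41.2 CPM in NC and 5.86 to 8.81 CPM in siMEOX2 libraries. Of these 3, 2 were called lower, and PECAM1 had a log2 fold change of -2.63 (edgeR adjusted p = 0.000321). None of the 3 was at 0 in either group. The summed glioma markers were at 1600 to 1620 CPM in NC and at 692 to 746 CPM in siMEOX2, with 5 of 7 lower. The epithelial markers were at 1.58 to 2.66 CPM against 4.69 to 5.01 CPM, with CDH1 higher (log2 fold change 1.89, edgeR adjusted p = 0.0354). The neuron markers were at 8.25 to 8.87 CPM against 8.82 to 9.71 CPM, with RBFOX3 lower (-1.33, edgeR adjusted p = 0.0284), and the leukocyte markers at 2.31 to 3.34 CPM against 2.88 to 3.07 CPM. Their part in the result on PDGFB was not tested.

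**Figure D4:**
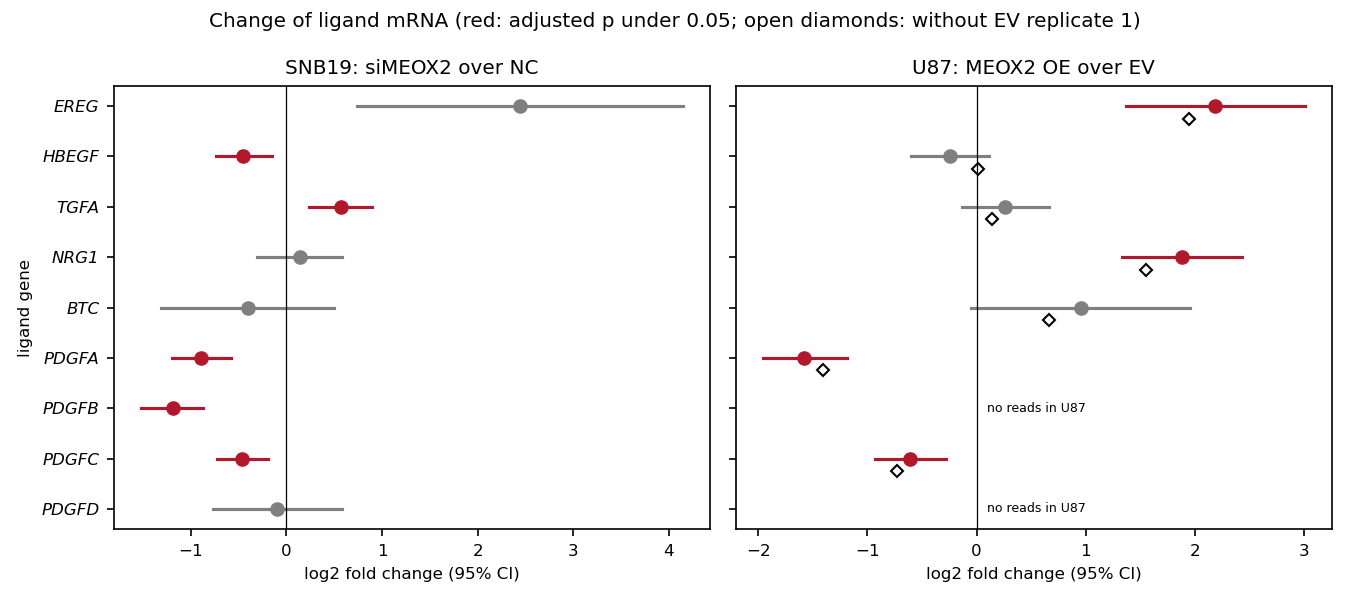
Log2 fold change with its 95% confidence interval (x axis) for each ligand tested (y axis) in SNB19 (siMEOX2 over NC, left) and U87 (OE over EV, right). Filled points are the fit of all 10 libraries, red where the adjusted p was under 0.05, and open diamonds leave out the first EV library. PDGFA and PDGFC lie below 0 in both panels, and EREG and NRG1 have the largest rises in U87.

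Overexpression of MEOX2 in U87 was accompanied by more EREG and NRG1 mRNA and by less PDGFA and PDGFC mRNA. Of the 7 ligands tested that had reads in U87, 4 were called (2 higher and 2 lower), where 26.2% of all genes tested were called, 11.3% higher and 14.9% lower. The median log2 fold change was 0.26 over the 7 ligands and -0.02 over all genes. The groups did not overlap for 6 of the 7, which was so for 52.8% of all genes.

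EREG was at 335 and 518 CPM in the EV libraries and at 2024 and 1865 CPM in the OE libraries, 4.55-fold higher (log2 fold change 2.19, SE 0.36, edgeR adjusted p = 0.00313). NRG1 was at 78.5 and 145 CPM against 429 and 396 CPM, 3.69-fold higher (log2 fold change 1.88, SE 0.24, edgeR adjusted p = 0.000921). The lower EV value of both genes came from the library that stood apart, and each OE library lay above each EV library. Without that library the log2 fold changes were 1.95 for EREG and 1.55 for NRG1 (edgeR adjusted p = 4.73e-15 and 2.83e-14, with 1 EV library assumed to vary like the other groups).

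PDGFA was at 30.2 and 25.4 CPM in EV and at 10 and 8.64 CPM in OE libraries, 2.98-fold lower (log2 fold change -1.58, SE 0.17, edgeR adjusted p = 0.000376). PDGFC was at 70.7 and 90.4 CPM against 54.4 and 51.5 CPM, 1.52-fold lower (log2 fold change -0.61, SE 0.15, edgeR adjusted p = 0.0167). Neither ligand's groups overlapped. Without the first EV library the log2 fold changes were -1.41 for PDGFA and -0.73 for PDGFC, and without the second EV library PDGFC was at -0.39 (edgeR adjusted p = 0.00181), while the call on PDGFC was lost without the first OE library (edgeR adjusted p = 0.0913) or the second (0.117).

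These U87 calls, like those in SNB19, rest on a spread estimated over both lines. With the 4 U87 libraries fitted alone, edgeR called 0 of 14180 genes at an adjusted p under 0.05 and 2643 at an unadjusted p under 0.05, and DESeq2 called 991 after adjustment. In that edgeR fit EREG, NRG1, PDGFA and PDGFC kept log2 fold changes of 2.18, 1.87, -1.59 and -0.62, with adjusted p = 0.156, 0.173, 0.16 and 0.303.

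HBEGF was at 73.7 and 56.1 CPM in EV and at 52.1 and 57.6 CPM in OE libraries (log2 fold change -0.24, 95% CI -0.6 to 0.11), and the groups overlapped. TGFA (log2 fold change 0.26, 95% CI -0.13 to 0.66) and BTC (0.96, -0.05 to 1.96) were not called. Without the second EV library, which leaves the one that stood apart, the log2 fold changes were -0.39 for HBEGF, 0.48 for TGFA and 1.44 for BTC. Without the first EV library they were 0.01, 0.14 and 0.66. PDGFB and PDGFD had no read in any U87 library, and the 2 OE libraries would allow up to 0.116 CPM. AREG, amphiregulin, had 1 and 2 reads in the OE libraries and 0 in the EV libraries, which gives no difference that could be detected at this depth.

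In U87 the summed glioma markers were at 6180 CPM in the first EV library, the one that stood apart, and at 2320 CPM in the second. VIM alone was at 5106 and 1305 CPM there. In the OE libraries the sum was 1390 to 1400 CPM, with 3 lower and 1 higher of 7 tested. The endothelial markers were at 7.63 to 8.2 CPM in EV against 1.58 to 2.4 CPM in OE, with 2 of 3 lower. The neuron markers were at 14.4 to 19.7 CPM against 10 to 10.9 CPM, with SNAP25 lower (log2 fold change -2.31, edgeR adjusted p = 0.00274). The epithelial markers were at 1.42 to 2.32 CPM against 0.414 to 1.01 CPM, with EPCAM lower (-2.21, edgeR adjusted p = 0.0181). The leukocyte markers had no read in EV and 0.166 to 0.864 CPM in OE. ITGAM had 13 reads in OE and 0 in EV, and is given as a value with no test. Their part in the results on the ligands was not tested.

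The change with MEOX2 was compared between the lines as (OE over EV) minus (NC over siMEOX2), so that a positive value means a larger rise with more MEOX2 in U87 than in SNB19. This difference passed the threshold for 6 of the 7 ligands tested that had reads in U87, where 24.4% of all genes did, 10.2% with a positive and 14.2% with a negative value (3 ligands each). PDGFB and PDGFD, with no read in U87, had no value to compare. PDGFA showed -2.47 (SE 0.22, edgeR adjusted p = 0.000122) and PDGFC -1.06 (SE 0.19, edgeR adjusted p = 0.00395): both were lower where MEOX2 was overexpressed in U87 and also lower where MEOX2 was silenced in SNB19. NRG1 showed 2.02 (SE 0.31, edgeR adjusted p = 0.00193). The value for EREG, 4.63 (SE 0.82), takes its SNB19 term from 4 and 24 reads, a change that was not called there, and was 3.94 without siMEOX2 library 3. For TGFA it was 0.83 (SE 0.23, edgeR adjusted p = 0.0275) and for HBEGF -0.69 (SE 0.2, edgeR adjusted p = 0.038), and BTC did not pass (0.56, 95% CI -0.8 to 1.91). The HBEGF call was lost in each fit without 1 SNB19 or OE library (edgeR adjusted p = 0.0673 to 0.147), and the TGFA call without the first or second NC library, siMEOX2 library 2 or 3 or either OE library (edgeR adjusted p = 0.053 to 0.103). The 2 perturbations differ in method and duration as well as in line, and these cannot be told apart.

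EREG, AREG and BTC share a stretch of chromosome 4 (EREG at chr4:74365143-74388751, AREG at chr4:74445134-74455009 and BTC at chr4:74744759-74794686, GRCh38, GENCODE v29), and the genes around them were looked at after the ligand values had been seen. In U87 OE libraries EREG had 24418 and 25912 reads, whereas EPGN, the EGFR ligand epigen 56.7 kb before it, had 4 and 1, and AREG, 80 kb after it, had 1 and 2. BTC, on the other strand and 429.5 kb away, had 36 and 74 reads in EV and 124 and 95 in OE libraries. PARM1, 568 kb from EREG, had 26 and 61 reads in EV against 139 and 172 in OE (log2 fold change 1.78, SE 0.43, edgeR adjusted p = 0.0173) and 0 to 3 reads in SNB19. MTHFD2L, on the other side, did not pass in U87 (log2 fold change 0.21, SE 0.23, edgeR adjusted p = 0.515). High EREG counts were thus not shared by the neighbouring ligand genes.

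**Figure D5:**
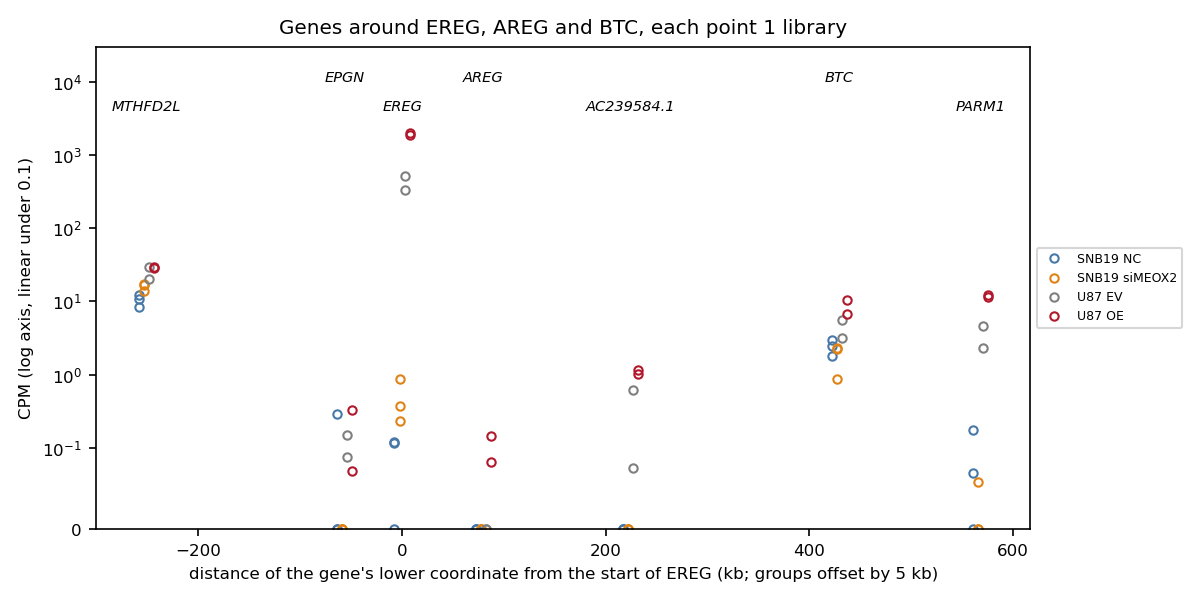
CPM (y axis, log scale, linear under 0.1) of the genes around EREG, AREG and BTC against their distance from the start of EREG in kb (x axis), each point 1 library and each colour 1 group. EREG stands at 1865 and 2024 CPM in U87 OE while EPGN and AREG stay under 1 CPM in every library.

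The genes whose log2 CPM ran most like a ligand over the 10 libraries are given as a description, since all share the same libraries and the large gap between the lines. For EREG they were SLC39A6 (Pearson r = 0.998) and AL359182.2 (0.996), for NRG1 TBRG1 (0.998) and TMBIM6 (0.997), and for PDGFA EHD2 (0.99) and P2RX6 (0.988). For PDGFC they were EDIL3 (0.989) and PPP4R1 (0.972), for HBEGF UQCRC2 (0.979) and FH (0.975), and for TGFA GPBP1L1 (0.969) and LUCAT1 (0.953). BTC ran most like STXBP5L (0.96) and EFCAB13 (0.958). PDGFB and PDGFD, at 0 in U87, were matched by SULF2 and SELENBP1 and by IPO5P1 and AC207130.1, with r of 0.998 or more.

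Of the 5 other EGF family ligand genes listed (EGF, EPGN, NRG2, NRG3 and NRG4), 2 passed the filter. NRG2, a neuregulin like NRG1, went opposite to NRG1 in U87, at 11 CPM in EV and 3.73 CPM in OE on average (log2 fold change -1.55, SE 0.23, edgeR adjusted p = 0.00177). Neither EGF nor NRG2 was called in SNB19. Both were lower in U87 EV than in SNB19 NC, EGF with a log2 fold change of -2.35 (edgeR adjusted p = 0.000544, and a value of -1.76 without the first and -3.44 without the second EV library) and NRG2 with -0.81 (edgeR adjusted p = 0.0067).

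Of the 5 receptors tested, 2 were called between the control lines, ERBB2 and ERBB3, both lower in U87, where 56.9% of all genes were called. Without the second EV library, which leaves the one that stood apart, the log2 fold change was -1.58 for EGFR and -0.82 for PDGFRB. Without the first EV library these values were -0.13 and -0.06. More receptors and more of all genes were called in the fit without the second EV library. In the knockdown 1 receptor was higher and in overexpression 1 was lower, against 6.99% and 14.9% of all genes. EGFR was at 168, 155 and 158 CPM in NC and at 78.7, 98.9 and 94.5 CPM in siMEOX2 libraries, without overlap, yet the log2 fold change of -0.82 (SE 0.3) was not called over the 10 libraries (edgeR adjusted p = 0.0979) and was called with SNB19 alone (edgeR adjusted p = 4.98e-09). In U87 it was at 52.6 and 145 CPM in EV and at 225 and 204 CPM in OE (log2 fold change 1.11, SE 0.37, edgeR adjusted p = 0.0518), and the log2 fold change was 0.60 without the first EV library (edgeR adjusted p = 3.02e-05) and 2.06 without the second (1.76e-15). The low EV value was that of the library that stood apart.

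ERBB3, a receptor of NRG1, rose with the knockdown from a mean of 9.03 to 14.1 CPM (log2 fold change 0.65, SE 0.15, edgeR adjusted p = 0.0207), a call that was lost without the first or second NC library or any siMEOX2 library (edgeR adjusted p = 0.0681 to 0.0987). In U87, where NRG1 was high, ERBB3 was at 0.332 to 0.624 CPM and ERBB4 at up to 0.432 CPM. ERBB2 and ERBB3 were lower in U87 EV than in SNB19 NC, with log2 fold changes of -2.95 and -3.87 (edgeR adjusted p = 2.34e-06 and 2.05e-06). ERBB2 was not called in the knockdown (log2 fold change -0.07) or the overexpression (-0.21).

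PDGFRB, the receptor of PDGFB and PDGFD, was at 21.4 and 36.9 CPM in EV and at 8.79 and 8.06 CPM in OE libraries, 3.46-fold lower (log2 fold change -1.79, SE 0.24, edgeR adjusted p = 0.00101). In the knockdown it was not called (log2 fold change -0.29, 95% CI -0.7 to 0.12), but it was without the first EV library (-0.28, edgeR adjusted p = 0.00338) or the second (-0.28, edgeR adjusted p = 0.00427). PDGFRA, the main receptor of PDGFA and PDGFC, was at 0.823 to 1.94 CPM over all 10 libraries and was called in no comparison of groups. Thus ligand mRNA for PDGFRA was measured in both lines beside little mRNA of that receptor.

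Of the 14 genes listed for release and activation of the ligands, all were tested. In SNB19 3 fell with the knockdown and 0 rose, against 8.75% and 6.99% of all genes. The most were called without either EV library, both of the list and of all genes. FURIN, which cuts PDGFA and PDGFB precursors, had a log2 fold change of -0.83 (edgeR adjusted p = 0.003), PLAU, urokinase, -0.64 (edgeR adjusted p = 0.00681) and PLAT, tissue plasminogen activator, -0.53 (edgeR adjusted p = 0.0241). In U87 2 fell with overexpression and 0 rose, against 14.9% and 11.3% of all genes. They were PLAU (-0.88, edgeR adjusted p = 0.00289) and BACE1, a protease that cuts neuregulin precursors (-0.62, edgeR adjusted p = 0.0323). The called genes of the list mostly fell without the first EV library and mostly rose without the second. The PLAT call was lost without any 1 SNB19 library (edgeR adjusted p = 0.0537 to 0.107), and the BACE1 call without any 1 library other than the first EV library (edgeR adjusted p = 0.0544 to 0.149). Between the control lines 7 were lower and 1 higher in U87, against 28.1% and 28.8% of all genes. More were called, of the list and of all genes, without either EV library. Among the lower genes were PLAT (-1.58, edgeR adjusted p = 2.9e-05), PLAU (-0.76, edgeR adjusted p = 0.00114) and FURIN (-0.75, edgeR adjusted p = 0.00177). ADAM19 was also lower (-2.40, edgeR adjusted p = 0.000243), at -1.89 without the first and -3.18 without the second EV library.

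Among the 12 genes listed as feedback on these receptors, 3 rose in U87 OE and 0 fell, against 11.3% and 14.9% of all genes. With either EV library left out more genes were called, of this list and of all genes, so the count depends on the fit. SPRY2, an inhibitor of receptor signalling, rose with a log2 fold change of 2.30 (edgeR adjusted p = 0.000514), CBLB, a ubiquitin ligase, with 1.82 (edgeR adjusted p = 0.00392) and SPRY4 with 0.93 (edgeR adjusted p = 0.0288). Without the first EV library these were 1.94, 1.38 and 0.58, and without the second 2.89, 2.60 and 1.52. In SNB19 1 rose and 0 fell with the knockdown, against 6.99% and 8.75% of all genes. This was ERRFI1, which binds and inhibits EGFR (log2 fold change 0.86, edgeR adjusted p = 0.0103). Here too more of the list and of all genes were called without either EV library, in both directions. The SPRY4 call was lost without any 1 NC or OE library (edgeR adjusted p = 0.0505 to 0.134), and the ERRFI1 call without NC library 2 or 3 or siMEOX2 library 2 or 3 (edgeR adjusted p = 0.0504 to 0.053). Between the control lines SPRY2 was called (2.14, higher in U87, edgeR adjusted p = 6.19e-05) and no other gene of the list, where 56.9% of all genes were. Without the first EV library more of the list were higher, and without the second more were lower. More of all genes were called in these fits as well.

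Among the 12 genes listed as output of ERK, the kinase downstream of both receptor families, 6 rose and 1 fell in U87 OE, against 11.3% and 14.9% of all genes, and the median log2 fold change was 0.45, against -0.02 over all genes. The fewest of the list rose without the first OE library, a fit in which the fewest of all genes rose as well. The 4 with the smallest adjusted p were IER3 (1.39, edgeR adjusted p = 0.000207), MYC (1.55, edgeR adjusted p = 0.000468), PHLDA1 (1.06, edgeR adjusted p = 0.00396) and EGR1 (1.28, edgeR adjusted p = 0.00714, and 0.0545 without the first OE library). In the SNB19 knockdown 4 rose and 2 fell, against 6.99% and 8.75% of all genes. More rose, of the list and of all genes, without either EV library. The genes in front were DUSP5 (1.50, edgeR adjusted p = 8.64e-05), MYC (1.33, edgeR adjusted p = 0.000681), DUSP4, which fell (-1.14, edgeR adjusted p = 0.000839), and IER3 (0.64, edgeR adjusted p = 0.00456). In U87 EV 10 were higher and 1 lower than in SNB19 NC, against 28.8% and 28.1% of all genes, with FOSL1 (3.16, edgeR adjusted p = 1.72e-07), DUSP6 (2.55, edgeR adjusted p = 1.31e-06), PHLDA1 (1.89, edgeR adjusted p = 1.51e-05) and MYC (1.74, edgeR adjusted p = 1.66e-05) leading. These lists stand beside the ligands in the same libraries, and no link between a ligand and a listed gene was tested.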

How the data were processed

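Poly-A RNA-seq libraries of SNB19 (NC and siMEOX2, 3 each) and U87 (EV and OE, 2 each) were analysed. Per the labels, reads were aligned to GRCh38 with HISAT2 and counted with HTSeq 0.11.2, and the submitters' processing notes also list DESeq2 1.26.0. The strand setting and annotation release are not given in the sources used here, so reads of overlapping antisense genes cannot be told apart. The table deposited by the authors holds raw gene counts and, from those counts, FPKM per library. Groups came from the sample titles. The members and lists were chosen with earlier results of these data known, and the named genes are all 10 ligands, MEOX2, all receptors, up to 4 called genes of each other list with the smallest adjusted p, and the 2 genes most like each ligand.

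Counts were tested with edgeR 4.0.16 (R 4.3.3; TMM, filterByExpr by group, quasi-likelihood test) in 1 fit of the 10 libraries, with Benjamini-Hochberg adjustment over 17312 genes and a threshold of 0.05. SE is the log2 fold change over the root of F. Similarity used log2 CPM with a prior count of 2. A gene at 0 in a group was bounded with 3 counts over the group. The code was tested on simulated counts. Gene positions are from GENCODE v29, promoter windows from RefSeq. Alternatives were RLE size factors, DESeq2 1.42.0, no filter, a replicate block, each line alone, an unadjusted p under 0.05 with an absolute log2 fold change over 1, and leaving out each library. Library totals of 12533775 to 16560324 counts set the precision of low genes such as AREG, EREG in SNB19, BTC and PDGFD. Figures were drawn with matplotlib.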

Additional observations from a re-analysis of the deposited data

Results flagged for a closer look

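The change with more MEOX2 differed between U87 and SNB19 for 6 of 7 ligands by the test of that difference in the fit of all 10 libraries (edgeR, log2 scale, U87 minus SNB19). It was larger in U87 for NRG1 (2.02, SE 0.31) and TGFA (0.83, SE 0.23). The value for EREG was 4.63 (SE 0.82), but its SNB19 term rests on 4 and 24 reads and was not called, and the gene passed the filter on low counts only through U87. It was lower in U87 for PDGFA (-2.47, SE 0.22), PDGFC (-1.06, SE 0.19) and HBEGF (-0.69, SE 0.2). For PDGFA and PDGFC the values behind the difference were a fall with silencing in SNB19 and a fall with overexpression in U87, each called on its own. No group held 4 or more libraries, so single libraries were not tested as outliers.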

How the results depend on the processing

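Over 30 ligand results and 465 alternative values, 386 kept direction and side of the threshold, 63 lost the call, 12 gained it and 4 changed sign. The 386 include EREG between the control lines, which had to differ, and fits without a library outside the comparison. The rule with the unadjusted p used the fold changes of the main fit, so no sign could change there. The tally is therefore no measure of how firm the results are. In the knockdown comparison the number of genes called was 2725 over the 10 libraries, 972 with a replicate block, 8683 with SNB19 alone and 1148 to 8700 with 1 library left out. The number of ligands called was 3 with no filter on low counts (2649 genes called) and 2 with a replicate block (972 genes). It was 2 with the unadjusted p and fold rule (10.6% of all genes) and 2 without any 1 SNB19 library (1148 to 1507 genes). For overexpression the 4538 genes called became 2126 with a replicate block, 0 with U87 alone (edgeR, 2643 at an unadjusted p under 0.05, against 991 by DESeq2 after adjustment) and 1553 to 10929 with 1 library left out, and the ligands called were 0 with U87 alone and 3 to 7 with 1 library left out. For the control lines 5 to 8 ligands were called with 1 library left out. These counts include EREG, PDGFB and PDGFD, which had to differ. The main fit called 5 ligands and 9843 genes, and the fits without 1 NC library called 5 ligands and 8219 to 8478 genes. The count of 8 came from the fit without the first EV library, which leaves 1 EV library. More of all genes were called there than in the main fit, so the higher count was not particular to the ligands. For the difference between lines the 4229 genes called became 2215 with a replicate block and 2265 to 10435 with 1 library left out. The spread used in every comparison was estimated over both lines. Between the 2 EV libraries the spread over that of counting alone (chi-square per degree of freedom) was 261.47, against 2.04 to 6.32 for other replicate pairs. Without either EV library more genes were called for knockdown, overexpression and difference than in the main fit. The cause was not tested.

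Signs changed in results near 0 that were not called. PDGFD in the knockdown ranged from -0.30 to 0.03 and HBEGF in overexpression from -0.39 to 0.01 with 1 library left out. PDGFRA in overexpression was 0.02 with RLE size factors and 0.02 with DESeq2, and -0.04 to 0.09 with 1 library left out, and ERBB2 there ranged from -0.39 to 0.09. The replicate block took the calls from HBEGF, TGFA and PDGFC in the knockdown and from PDGFC in overexpression (adjusted p = 0.148, 0.116, 0.12 and 0.0759), and from HBEGF and TGFA in the difference (0.121 and 0.0986). Deviations of same-numbered SNB19 libraries correlated at 0 to 0.06 and those of U87 at -0.16. With 2 libraries per U87 group, pairs of different number could only give the same value with the other sign (0.16). Such values cannot tell whether same-numbered libraries were prepared together, and the labels do not say. Of 34 called results on MEOX2, receptors and listed genes, 6 lost the call in at least 1 fit without a library: ERBB3, ERRFI1 and PLAT in the knockdown and BACE1, EGR1 and SPRY4 in overexpression, with adjusted p up to 0.149. Depth limits AREG, EREG in SNB19 and the receptors ERBB4 and PDGFRA.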
